A study of Strongylocentrotus purpuratus with 10 samples.

Results

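The regions described here are the Brachyury ChIP-seq peaks that both antibody libraries detected at the blastula stage of the purple sea urchin, Strongylocentrotus purpuratus. A peak of antibody library 2 was counted as shared when it overlapped a peak of antibody library 1 on the same scaffold by at least 1 bp. This gave 249 of the 7459 library 2 peaks (3.34%). They lay over 249 of the 1484 library 1 peaks (16.8%). The members were chosen by their peak positions in both lists, so the peak values that follow are a description and carry no test.

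Antibody ChIP libraries 2 and 1, each with its own input library, came from whole embryos at 24 h after fertilisation. Embryos grew at 15 °C and were fixed with 1% formaldehyde for 12 min, and their chromatin was sheared to 100 to 200 bp and read as 50 bp single reads. The labels give AB1 and AB2 as names and do not say if these are different antibodies or different embryo samples. RNA-seq set 3 libraries of morphants against 3 libraries of wild type controls with 100 bp paired reads, where a morpholino that blocks translation of brachyury had been injected into the zygotes (2 to 4 pl at 200 µM). An injection of the controls is not mentioned, so an effect of injection cannot be told apart from that of the morpholino. The files give no read totals, and the depth of each library is unknown.

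Brachyury is a T-box transcription factor that binds DNA through its T domain. In sea urchin embryos it is expressed around the vegetal plate, at the future blastopore and gut, and in the oral field where the mouth will form. In vertebrates it is known for its role in mesoderm and notochord formation, and Wnt ligands act on its expression in many animals.

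In library 2, most shared peaks inside the authors' combined set had a higher fold over input than any outside it. In library 1 these classes overlapped. The authors deposited this combined set of 490 peaks. Of the 249 shared peaks, 168 are rows of it (67.5%). The nominal 95% Wilson interval, 61.4% to 73.0%, takes peaks as independent and holds counting error only. Yet 38 of the 249 lay within 1 kb of another, and the 249 are every peak that the rule found. The interval thus measures no spread between libraries or embryos. Of all library 2 peaks, 6.54% are rows of the combined set. How the lists were combined is not stated. All of the first 171 rows are library 2 peaks that overlap a library 1 peak or miss one by at most 51 bp. The rule may thus have used the overlap itself, and nothing is read from this difference in share. The other 81 shared peaks were in both lists and not in the combined set.

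The fold over input largely separated these classes in library 2. It had a median of 5.26 and ranged from 2.03 to 73.4 in the 168 shared peaks of the combined set, against a median of 1.75 and a range of 1.21 to 2.57 in the 81 outside it. The ranges met between 2.03 and 2.57, where 38 shared peaks of the combined set and 9 outside it lay. A library 2 fold of at least 3 was reached by 115 of the 168 and 0 of the 81. The rule of the combined set is not stated and may have used these values. Differences in fold and input between the classes are therefore a description and may restate that rule. In library 1 the folds overlapped widely, with a median of 3.85 (1.84 to 16.45) inside the combined set and 2.55 (1.23 to 10.73) outside it. The scaling of the signals is not stated, so levels are compared within a list and not between lists.

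Input signal differed between the classes in both lists. In library 2 the median input signal was 0.55 (0.19 to 1.06) in shared peaks of the combined set and 0.95 (0.47 to 4.57) in those outside it. In library 1 it was 0.25 (0.05 to 0.74) inside the combined set and 0.38 (0.07 to 3.60) outside it. In library 2, 36 of the 81 shared peaks outside the combined set had more input signal than any shared peak inside it, and in library 1 this held for 14. Median antibody signal in library 2 was 2.70 inside the combined set and 1.63 outside it, while in library 1 the medians were 0.90 and 0.92. The part of the input in the appearance of these regions in both lists was not tested.

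Across the 81 shared peaks outside the combined set, antibody signal followed input signal closely, with a Spearman rank correlation of 0.94 in library 2 and 0.96 in library 1. Across the 168 inside it, the rank correlation was -0.01 in library 2 and 0.65 in library 1. These correlations are across peaks of the same library, which are not independent replicates. Neither list holds a score under 0.50, so a peak with high input needed high antibody signal to be listed. The library 2 folds of the 81 span only 1.21 to 2.57, which ties antibody signal to input there. Those of the 168 span 2.03 to 73.4, so the library 2 correlations of the classes are not a like comparison. In library 1 the scores of the 81 had quartiles of 0.53 and 0.64, so antibody signal there was input plus a nearly constant amount. Library 1 input spanned 0.07 to 3.60 in the 81 and only 0.05 to 0.74 in the 168. The library 1 correlations are therefore not a like comparison either.

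**Figure D1:**
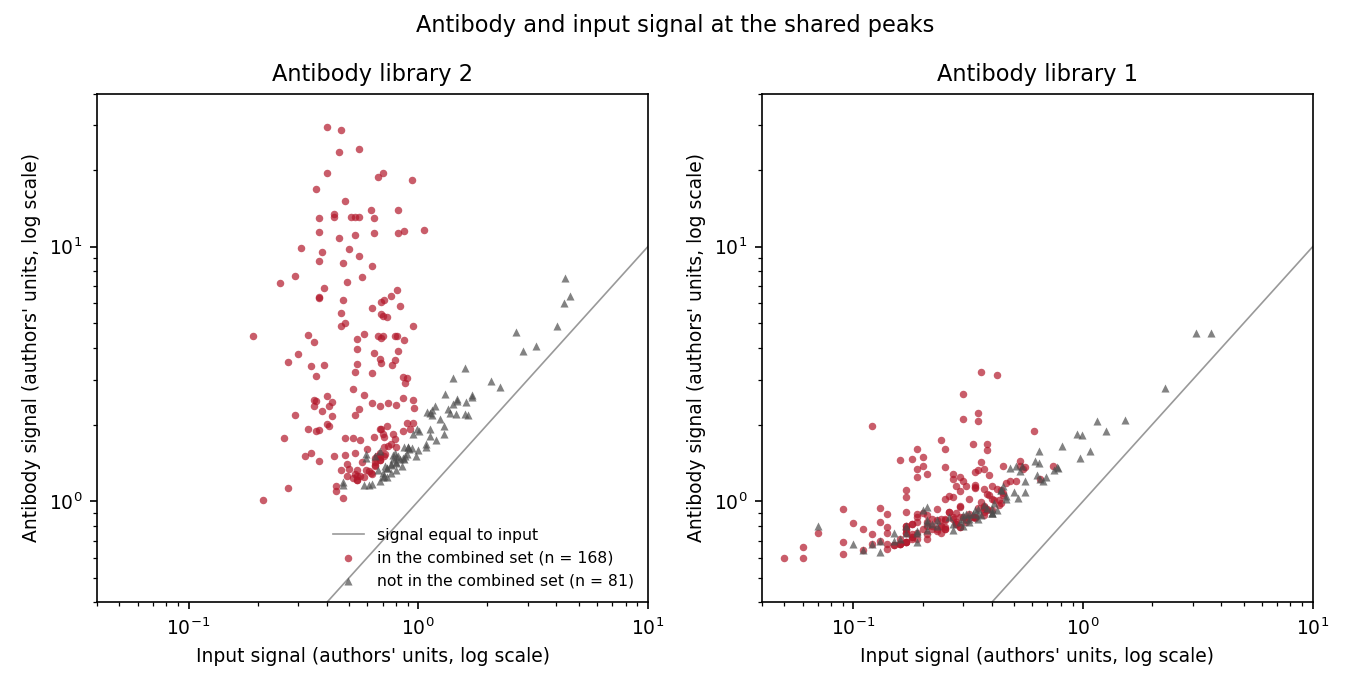
Antibody signal (vertical) against input signal (horizontal) of the 249 shared peaks in antibody library 2 and antibody library 1, both axes logarithmic and in the authors' units, with 1 point per peak. In both lists the antibody signal of peaks outside the combined set (grey triangles) climbs with the input signal. In library 2 many peaks of the combined set (red circles) stand far above them at input signals of 1.06 or less, and in library 1 the classes overlap.

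The 5 highest library 2 input signals among the shared peaks, 3.26 to 4.57, were all outside the combined set. A region 67018 bp from the nearest gene had 7.54 antibody and 4.38 input signal in library 2, and 4.57 antibody and 3.10 input signal in library 1. A region inside LOC577593, whose product the authors' deposited table describes as the peroxisomal membrane protein PEX16, had 6.01 antibody and 4.31 input signal in library 2 and 4.58 antibody and 3.60 input signal in library 1. A region inside LOC105443018 had 4.90 antibody and 4.04 input signal in library 2, the lowest library 2 fold of the shared peaks at 1.21, and 2.08 antibody and 1.52 input signal in library 1. The other 2 lay inside LOC105436390, with 6.42 antibody and 4.57 input signal and with 4.09 antibody and 3.26 input signal in library 2. In library 1 these had 2.78 antibody and 2.27 input signal and 1.27 antibody and 0.63 input signal. The last of these inputs is within the library 1 range of the combined set, and the other 4 are above it.

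The distance between the summits of a shared peak is limited by the overlap rule, and the largest was 208 bp. Summits lay within 50 bp of each other in 137 shared peaks, and midpoints did so in 137. The distance is therefore in part a restatement of the overlap that chose the members. A library 2 peak is 284 bp long and a library 1 peak 136 bp, and 169 of the 249 shared peaks (67.9%) held the library 1 peak whole. The median distance between the summits was 44 bp over all shared peaks, 32.5 bp inside the combined set and 88 bp outside it. The library 1 summit lay at the higher coordinate in 126 shared peaks, at the lower one in 121 and at the same base in 2. At the limit of the rule, the 6 shared peaks with the smallest overlaps (2 to 9 bp) had library 2 scores of 0.52 to 1.68. The 6 nearest peaks left out, with gaps of 2 to 9 bp, had scores of 0.66 to 1.06. Among those left out is a peak 4627 bp from Tbx2/3, next to a shared one.

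Some neighbouring shared peaks may not be separate regions. Of the 249, 38 lay within 1 kb of another, in 18 clusters of at most 3, and 10 library 1 peaks lay under a pair of library 2 peaks. Of these clustered peaks 14 are in the combined set and 24 are not. Joining them leaves 229 loci.

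The authors' values show peak score to equal the antibody minus the input signal times a fraction for the read distribution. The scores of the lists ordered the shared peaks partly alike. Their Spearman rank correlation was 0.47 across all 249 shared peaks and 0.61 across the 168 of the combined set. The 62 shared peaks with the highest library 2 scores (3.65 to 29.24) had a median fold of 17.1 in library 2 and 3.94 in library 1, and all 62 are in the combined set. The 63 with the lowest scores (0.50 to 0.72) had a median fold of 1.84 in library 2 and 3.13 in library 1, and 18 of them are in the combined set. Across the shared peaks of the combined set, antibody signal in library 2 and library 1 had a Spearman rank correlation of 0.72, while that of the folds was 0.06. The folds are ratios to small inputs. The folds above 10 in library 1 came from input signals of 0.05 to 0.12.

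**Figure D2:**
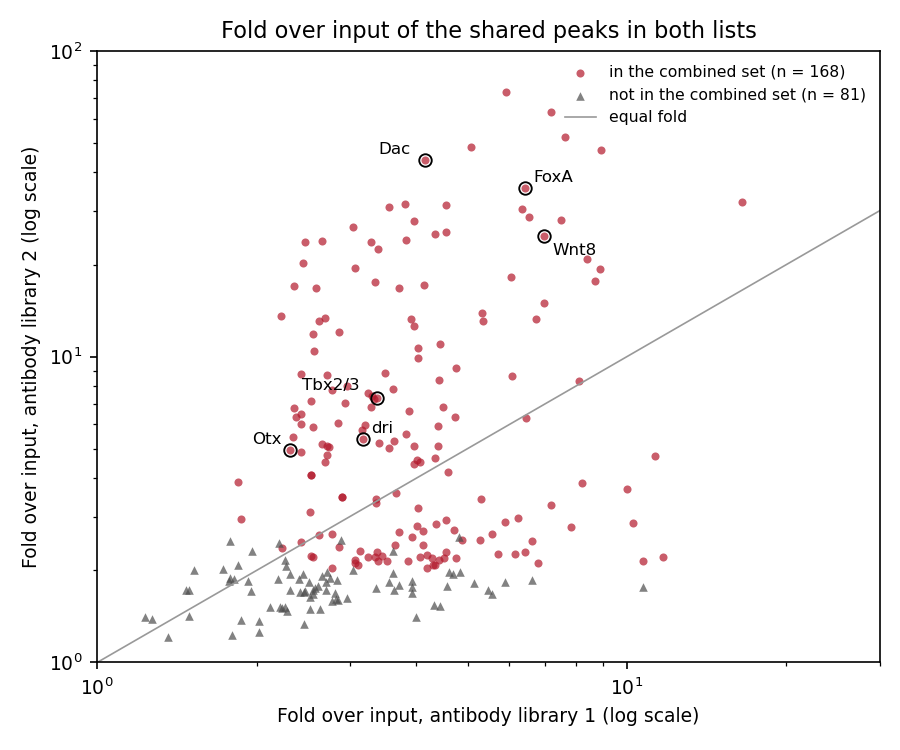
Fold over input of each of the 249 shared peaks in antibody library 2 (vertical) against antibody library 1 (horizontal), both axes logarithmic, with 6 peaks circled and named by their nearest gene. The library 2 fold is the higher one in 108 of the 168 peaks of the combined set (red circles) and in 13 of the 81 outside it (grey triangles).

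Shared peaks were common among the strongest peaks of library 2 but did not include all of them. They were 5 of its 10 highest-scoring peaks, 32 of the 50 highest and 112 of the 502 highest. Among nuclear library 1 peaks they were 3 of the 10 and 25 of the 50 highest. In library 2 the authors' false discovery rate rose with score across the shared peaks of the combined set (Spearman rank correlation 0.54). The shared peak with the highest library 2 score carried a rate of 83.3%. Across all library 2 peaks the rate fell with score (-0.92), as it did across the 81 shared peaks outside the combined set (-0.98). In library 1 it fell with score across all shared peaks (-0.997). The rate was under 10% in library 2 for 40 of the 168 shared peaks of the combined set and 17 of the 81 outside it, and no shared peak was under 13.7% in library 1.

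Of the 10 highest shared peaks by score in each list, 4 were in both. The one with the highest library 2 score lay inside LOC100888338, a gene without a name in the files. It had 29.65 antibody and 0.40 input signal in library 2 and 2.07 antibody and 0.35 input signal in library 1, which are folds of 73.4 and 5.90. The peak inside LOC591190 had 28.87 antibody and 0.46 input signal in library 2 and 1.74 antibody and 0.24 input signal in library 1. The peak inside LOC100891454 had 18.82 antibody and 0.67 input signal in library 2 and 3.14 antibody and 0.42 input signal in library 1. These were high over low input in both libraries.

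The fourth, inside LOC105445029, had the highest library 1 score of the shared peaks, 2.85, with 3.21 antibody and 0.36 input signal. In library 2 it had 18.27 antibody and 0.94 input signal, a fold of 19.35. The authors' deposited table places LOC105445029 at -1.23 on the log2 scale (adjusted p = 0.00037). Its description there names a very low-density lipoprotein receptor under another gene ID, so the identity of the product is uncertain.

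Several of the highest shared peaks lay far from genes or near genes without a name. The largest library 1 fold, 16.45, belonged to a region 12246 bp from the nearest gene, with 1.97 antibody and 0.12 input signal in library 1 and 9.84 antibody and 0.31 input signal in library 2. A peak 7943 bp from LOC581142 had a library 2 fold of 52.3, and one 6884 bp from LOC576574 had 48.6. LOC576574 had a second shared peak, 6485 bp away, with a library 2 fold of 7.46. A peak 32222 bp from the nearest gene had folds of 47.3 in library 2 and 8.94 in library 1.

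Of the genes with a known role, the Wnt ligand, a fibroblast growth factor receptor relative and regulators of endoderm and ectoderm each held 1 shared peak. Coordinates refer to scaffolds of the assembly Spur_5.0, with the first base as 1. The gene table gives spans without strand or exons, so promoter, exon and intron were not told apart.

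Wnt8 encodes a secreted Wnt ligand that acts in the endomesoderm of the early sea urchin embryo. Its shared peak lay inside the gene span, at NW_022145595.1:3238322-3238605, and was the only library 2 peak within 20 kb of the gene. It had 13.13 antibody and 0.53 input signal in library 2 (fold 24.8) and 2.1 antibody and 0.30 input signal in library 1 (fold 6.97). Both libraries were thus well above their inputs, and Wnt8 is not among the genes of the authors' deposited table.

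FGFRL1, a receptor-like protein of the fibroblast growth factor family, held a shared peak inside its span at NW_022145600.1:15785681-15785964. This peak had 4.44 antibody and 0.79 input signal in library 2 and 1.10 antibody and 0.29 input signal in library 1. The authors' deposited table lists FGFRL1 with a log2 fold change of -0.99 (adjusted p = 0.0075). The receptor gene FGFR, named after its peaks were seen, lies next to it. Within 20 kb of FGFR there are 20 library 2 peaks, of which 16 are in the combined set, and the peak in FGFRL1 is the only shared one.

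FoxA is a forkhead factor of the endoderm, expressed in the gut and the oral field. Its shared peak lay 1478 bp beyond the gene span, at NW_022145611.1:31440387-31440670, with 13.01 antibody and 0.37 input signal in library 2 and 2.22 antibody and 0.35 input signal in library 1. The folds were 35.6 in library 2 and 6.43 in library 1. The other 7 library 2 peaks within 20 kb of FoxA had scores of at most 1.36, against 12.64 for the shared one. In the authors' deposited table FoxA stood at -0.67 on the log2 scale (adjusted p = 0.0034).

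Otx, a homeobox factor used in endomesoderm and in anterior tissue, had a shared peak inside its span that overlapped a pair of library 1 peaks. It had 4.29 antibody and 0.87 input signal in library 2, and the library 1 peak with the larger overlap had 0.92 antibody and 0.40 input signal. The library 2 fold was 4.95. The library 1 fold was 2.31 for that peak and 2.93 for the other of the pair, whose library 1 score was the higher (0.67 against 0.52). The authors' deposited table lists otx at 0.56 on the log2 scale (adjusted p = 0.00091).

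Dac encodes a dachshund transcriptional cofactor. A copy of it, LOC115918252, has an annotated span of only 402 bp. It was 8356 bp from the third-highest shared peak by library 2 score. That peak had 24.21 antibody and 0.55 input signal in library 2 and 1.59 antibody and 0.38 input signal in library 1. This copy had a log2 value of 0.64 in the authors' deposited table (adjusted p = 0.0024). Its description there carries the ID of another copy, and reads may be divided between copies. That other copy, LOC586986, had 2 library 2 peaks within 10 kb, and neither was shared. It stood at 0.80 on the log2 scale in the authors' deposited table.

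Tbx2/3 is another T-box factor, expressed in the aboral ectoderm. Its shared peak lay 4916 bp from the span and had 3.95 antibody and 0.54 input signal in library 2 and 1.16 antibody and 0.34 input signal in library 1. Tbx2/3 stood at -0.85 on the log2 scale in the authors' deposited table (adjusted p = 0.0031). Tgif, a homeobox repressor, held a shared peak with 3.18 antibody and 0.63 input signal in library 2 and 0.84 antibody and 0.31 input signal in library 1. It stood at -0.68 in the authors' deposited table (LOC575445, adjusted p = 0.0075).

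Of the other genes with symbols, dri and PMCA are outside the rule for named genes and were named after their values were seen. The peak inside dri, which encodes an ARID-domain DNA-binding factor, had folds of 5.37 in library 2 and 3.17 in library 1. The peak inside the calcium pump gene PMCA had a library 2 fold of 3.85 and a library 1 fold of 8.24. Neither gene is in the authors' deposited table. SFE1, whose symbol stands for a component of the fertilisation envelope, had its shared peak 372 bp away with a library 2 fold of 1.72 and a library 1 fold of 5.47, outside the combined set.

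At brachyury itself the peaks inside the gene were found in library 2 alone. The 7 library 2 peaks within the span of LOC576774 had scores of 1.95 to 9.91, are all in the combined set, and overlapped no library 1 peak. The shared peak of the locus lay 11334 bp outside the span, at NW_022145607.1:32921414-32921697, and was therefore not given to the gene under the 10 kb limit. It had 4.44 antibody and 0.81 input signal in library 2 (fold 5.47) and 1.20 antibody and 0.51 input signal in library 1 (fold 2.34). The authors' deposited table places the brachyury transcript at 1.18 on the log2 scale (adjusted p = 8.71e-05), which is no check of a morpholino that acts on translation.

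Other high library 2 peaks at regulators, chosen after their values were seen, were likewise not shared. GATAe, an endoderm GATA factor, held peaks with library 2 scores of 26.41 and 20.84 and no shared peak. Its library 1 peak, with a score of 0.53, lay elsewhere in the gene. Library 1 had no peak within 20 kb of Nanos2, a germline regulator. A region absent from the library 1 list may lie under its threshold, and no value is listed for it there.

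**Figure D3:**
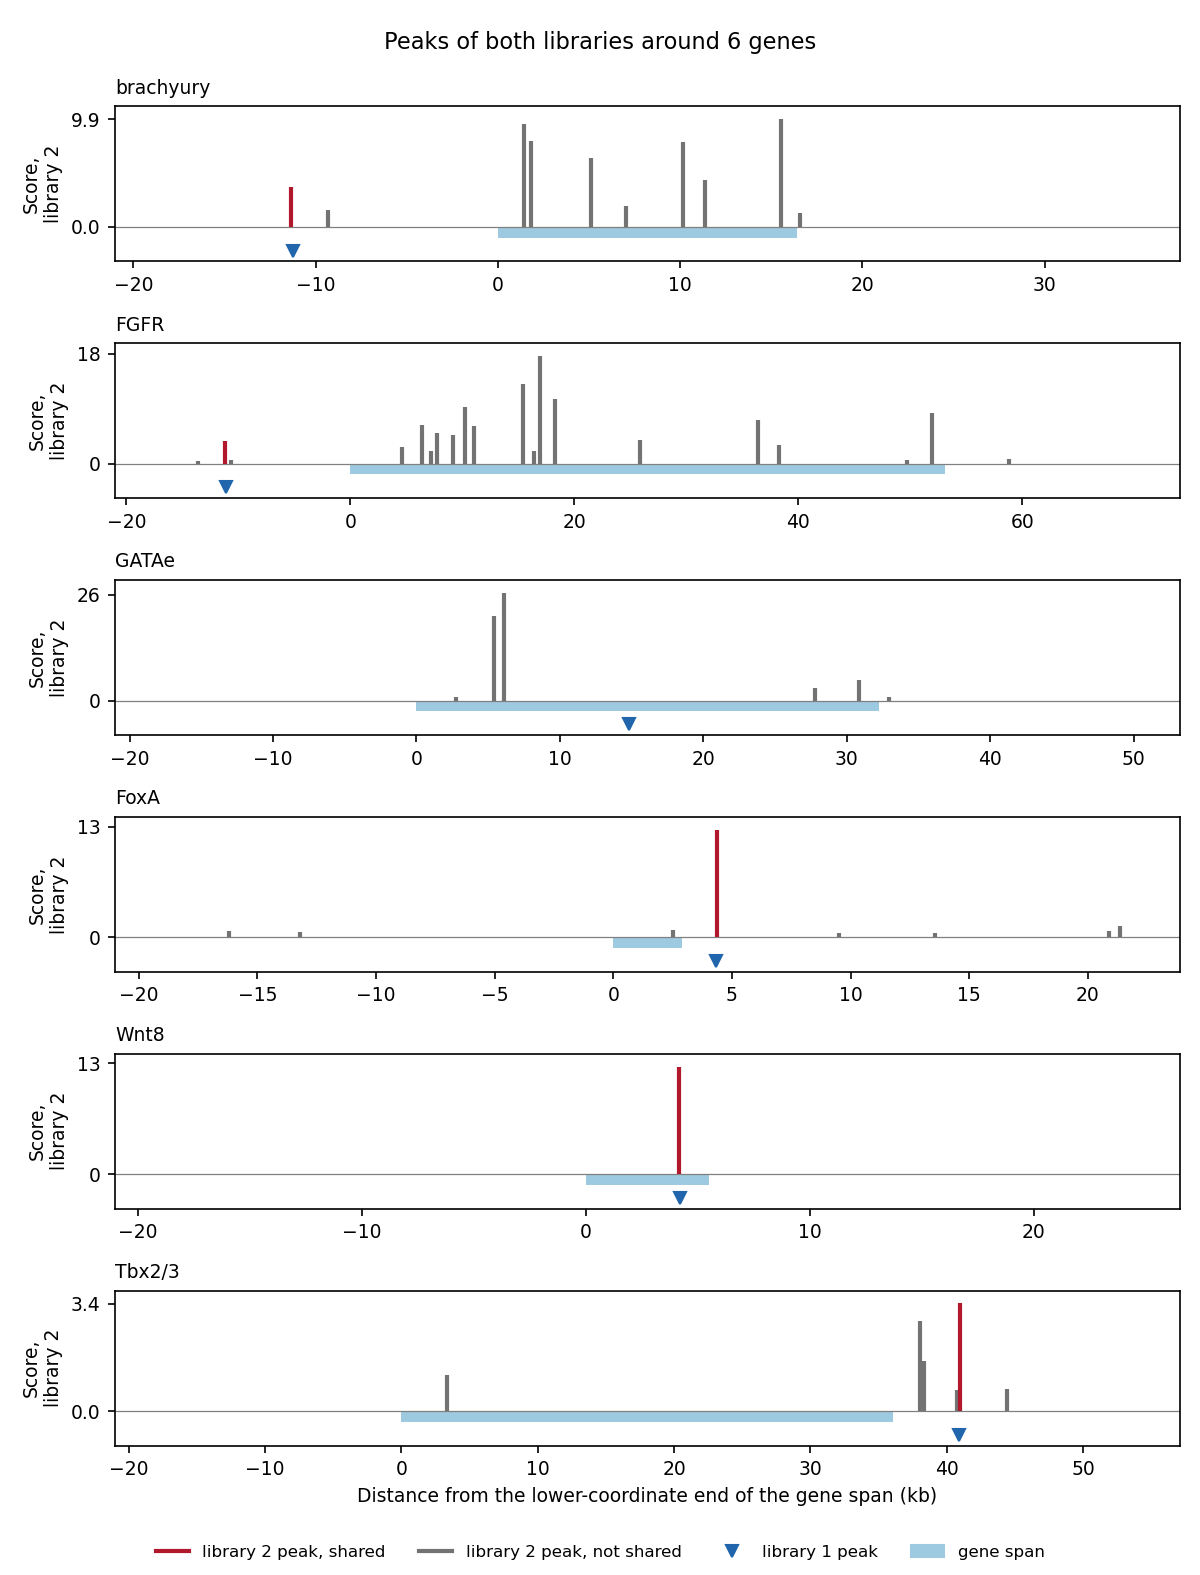
Peaks within 20 kb of 6 genes, plotted by the distance of the peak midpoint from the lower-coordinate end of the gene span in kb. Lines show library 2 peaks with their score as height (red where shared, grey where not), triangles show the positions of library 1 peaks, and blue bars show gene spans. The shared peak is the highest at FoxA, Wnt8 and Tbx2/3, lies outside the spans of brachyury and FGFR, and is missing at GATAe.

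Of the 249 shared peaks, 158 had their midpoint inside a protein-coding gene span (63.5%), and 199 (79.9%) were inside or within 10 kb of one. Among the 7176 other library 2 peaks on the same scaffolds, 68.5% were inside a gene. Within the shared peaks the share inside genes was 58.9% for the combined set and 72.8% outside it. All shared peaks lay on the 21 large scaffolds whose genes could be placed, and 13 were inside a long non-coding RNA gene and no protein-coding one.

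The 199 peaks were assigned to 178 genes, of which 161 had 1 shared peak, 13 had 2 and 4 had 3. The 4 genes with 3 were LOC100890809, LOC105436390, LOC574867 and LOC580672, with library 2 folds of 1.23 to 2.95, and none is in the authors' deposited table. Most genes with several shared peaks had them side by side at low folds. In the kinase gene Mark3 (LOC592325) the shared peaks, 5.02-fold and 2.85-fold in library 2, were far apart in the gene. The same held for LOC592853, with shared peaks of 6.77-fold and 1.97-fold in library 2. In the authors' deposited table Mark3 had a log2 fold change of 0.58.

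Of the 178 genes, 36 (20.2%) were in the authors' deposited table of genes with an adjusted p under 0.05 between morphants and controls, where 12.0% of the 24773 protein-coding genes on these scaffolds are. On the positive side of the authors' deposited table were 20 of them (11.2%), against 5.98% of all these genes, and on the negative side 16 (8.99%), against 6.04%. The table does not say which group is the numerator, so a sign cannot be read as a gain or a loss in morphants. It gives no value per library. In whole embryos, fewer cells of a type and less RNA per cell cannot be told apart.

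Genes near a shared peak of the combined set were in the authors' deposited table more often than those near a shared peak outside it, at 30 of 125 (24.0%, 15 positive and 15 negative) against 6 of 59 (10.2%, 5 positive and 1 negative). Of the genes with a combined peak and no shared one, 44 (26.5%) were in the authors' deposited table. Of the 3566 genes with other library 2 peaks and no shared peak, 18.5% were in the authors' deposited table. No test of these differences was made, and 6 genes count both as near a shared peak of the combined set and as near one outside it.

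Gene length moved with these shares. Genes with a shared peak had a median span of 20916 bp, those with other library 2 peaks 19243 bp, and all protein-coding genes 10226 bp. The median was 23421 bp for genes near a shared peak of the combined set and 15287 bp for those near one outside it. Genes were put into 4 groups of about equal size by length, and the longest group held 90 of the 178. Of these 90, 24.4% were in the authors' deposited table, against 18.1% of all genes of that length and 22.1% of those with other library 2 peaks. In the shortest group the shares in the authors' deposited table were 7.41% of 27 genes with a shared peak, 7.66% of genes with other library 2 peaks and 5.63% of all genes. The part of gene length in the shares was not tested.

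The fold changes of the 36 genes were modest. The median absolute log2 fold change in the authors' deposited table was 0.78 for these genes and 1.00 for all protein-coding genes of the table on these scaffolds. It was at least 1 for 11 of the 36, 5 positive and 6 negative. These 11 are 6.18% of the 178 genes, and 6.05% of all protein-coding genes pass the same limit.

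On the positive side, the gene of highest library 2 score after Dac was Rergl2 (LOC581260), a Ras-like small GTPase outside the rule for named genes, with a library 2 fold of 25.55 and, in the authors' deposited table, a log2 fold change of 1.07. Whirlin (LOC575423), a PDZ-domain scaffold protein, stood at 1.06 and the zinc finger gene LOC100893457 at 1.33 in the authors' deposited table. Shroom4L (LOC578304), of a family that binds actin and shapes epithelial cells, had a library 2 fold of 17.49 and stood at 0.55 on the log2 scale in the authors' deposited table. The atypical cadherin gene FatL1 (LOC580257) stood at 0.73, the chromatin-remodelling helicase gene Inoc1 (LOC590972) at 0.72 and the aconitase gene Aco1 (LOC586198) at 0.66 in the authors' deposited table.

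The largest positive values of the group came with weak peaks outside the combined set. Galnt11 (LOC105440495), named for a glycosyltransferase, had 1.91 and LOC100890820 1.79 in the authors' deposited table, with library 2 folds of 1.79 and 1.75. SFE1 had 0.92 there. Its adjusted p of 2.02e-10 was the lowest of the 36 genes in the authors' deposited table. The description of SFE1 in that table names a low-density lipoprotein receptor-related protein under another gene ID, and that of Galnt11 also carries another ID, so both products are uncertain. Such a mismatch holds for 5 of the 36 genes.

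On the negative side, LOC754321, described as DNA ligase 1, had -1.86 and Pks1 (LOC588806), the polyketide synthase of pigment cells, -1.60 in the authors' deposited table. The Pks1 peak was weak, with a library 2 fold of 2.14 and a library 1 fold of 3.53. The nuclear receptor gene E78a (LOC579483), also outside that rule and chosen for its value, had -1.27 in the authors' deposited table, and its peak had folds of 9.90 in library 2 and 4.03 in library 1. Macf1-2 (LOC582631), described as nesprin-1, a spectrin-repeat protein that links nucleus and cytoskeleton, had -1.39 in the authors' deposited table with a library 2 fold of 2.00 outside the combined set. The guidance-molecule gene SemaA (LOC580797) had -0.92 in the authors' deposited table. Hemicentin (LOC574679, HemiL) and laminin beta (LOC582206, Lamb2), both extracellular matrix proteins, had -0.79 and -0.36 in the authors' deposited table.

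**Figure D4:**
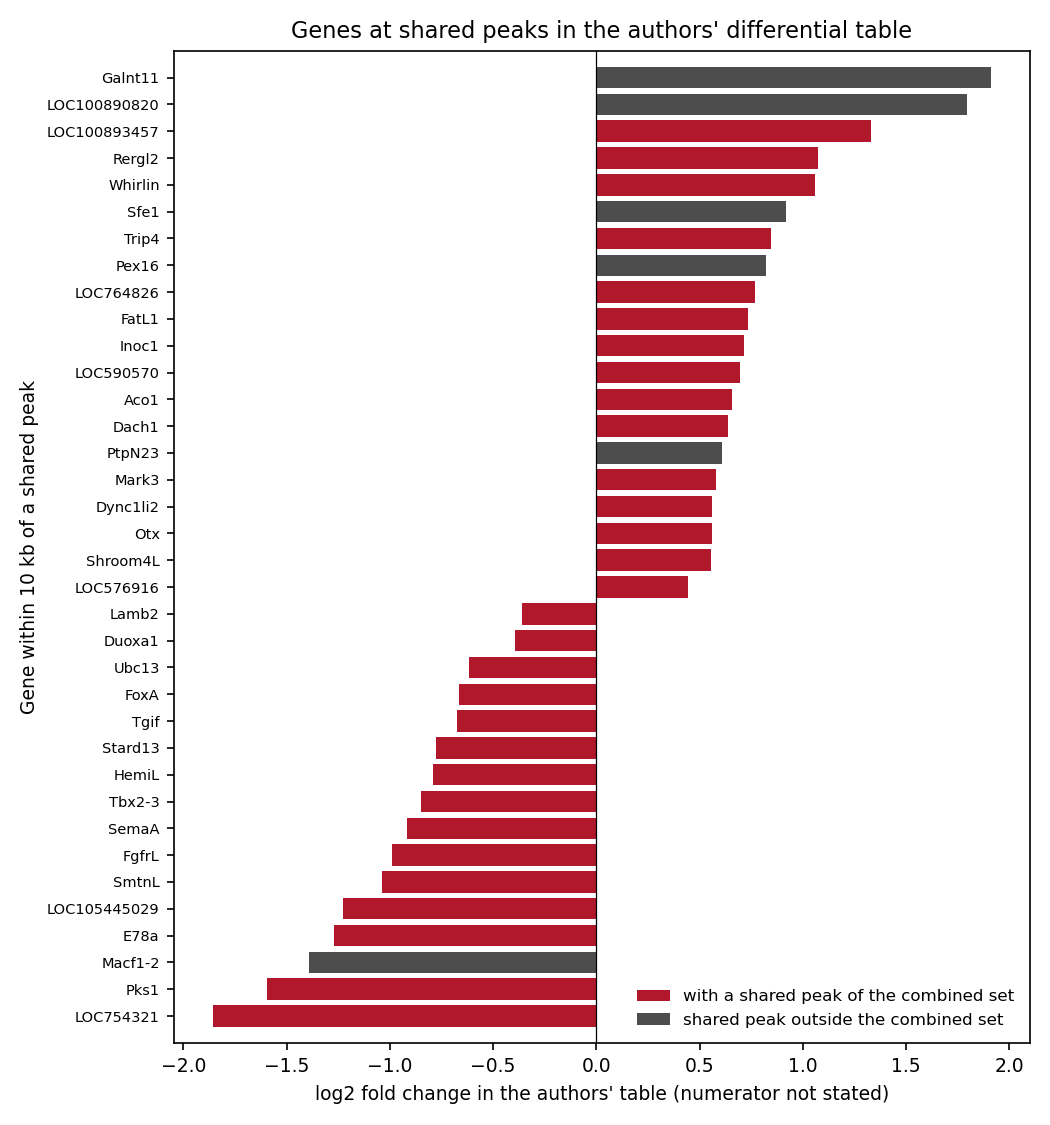
Log2 fold changes of the 36 genes within 10 kb of a shared peak, from the authors' deposited table, with 1 bar per gene. Red bars mark genes with a shared peak in the combined set, 15 on each side of 0, and grey bars the 6 genes whose shared peak is outside it, 5 of them positive. The table does not say which group is the numerator.

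Lists of developmental regulators and signalling genes, drawn up from textbook knowledge with earlier results known, matched 55 genes. Of these, 6 had a shared peak within 10 kb, 22 a combined peak and 42 any library 2 peak. Of all protein-coding genes on these scaffolds 0.719% had a shared peak, 1.19% a combined peak and 15.1% a library 2 peak. The endoderm and endomesoderm list had 4 of 13 genes with a shared peak, namely FoxA, Otx, the Dac copy and Tgif. The T-box list had 1 of 2 and the ectoderm and neural list 1 of 18, Tbx2/3 in both. The signalling list had 1 of 11, Wnt8. No gene of the mesoderm list had a shared peak, of 12 matched, although 10 of them had a library 2 peak. Of the 6 genes, 2 were positive, 3 negative and Wnt8 absent in the authors' deposited table. Many gene names were known only through that table, so the lists favour genes that are in it.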

How the data were processed

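The members, gene lists and comparisons were chosen with earlier results of these data known. The authors deposited, for every peak, the antibody and input signal, their ratio (fold over input) and a score. Per the file headers they also deposited a fraction for the read distribution and a false discovery rate in percent. The log2 fold changes and p-values are the authors' deposited ones. The submitters' processing notes list BWA 0.7.17, Trimmomatic 0.38, Salmon 0.11.3 and DESeq2 1.28.1 without roles. The peak caller, signal scaling and combining rule are not given in the sources used here.

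Overlap was computed per scaffold, and a shared peak took the library 1 values of the peak with the largest overlap. Membership in the combined set means identical coordinates, and 171 shared peaks overlap a combined peak. The RefSeq gene table of Spur_5.0 names no scaffold for nuclear genes. Its 21 blocks of rising start were paired in order with the 21 scaffolds holding over 100 library 2 peaks, an inference from order. Peaks went to the protein-coding span nearest to the midpoint within 10 kb. Genes named are those at the 10 highest shared peaks by score and the 5 by fold in each list, those with 2 or more shared peaks, listed genes with a shared peak, brachyury, and up to 30 genes of the differential table by adjusted p. Sequence motifs were not analysed here. Overlap code was tested on simulated data. Tables were computed in Python 3.11.15 with pandas 2.3.3, numpy 2.4.6 and scipy 1.17.1, and drawn with matplotlib 3.10.9.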

Additional observations from a re-analysis of the deposited data

How the results depend on the processing

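The number of shared peaks was 249 and became 214 with an overlap of at least 50% of the shorter peak, 226 with a library 2 false discovery rate under 50%, 137 with midpoints within 50 bp, 137 with a library 2 score of at least 1, and 78 with a fold of at least 3 in both lists. The share in the combined set was 67.5% and became 77.4% with close midpoints, 90.5% with the score limit and 100% with the fold limit. The median library 2 fold was 2.70 and became 3.42 with the larger overlap, 5.29 with close midpoints, 6.77 with the score limit, 9.53 with the fold limit and 2.49 with the rate limit. The median library 1 fold of 3.37 became 3.475, 3.36, 3.55, 4.245 and 3.295 under the same 5 limits in that order, and the Spearman rank correlation of antibody signal between the lists, 0.60, became 0.62, 0.65, 0.61, 0.78 and 0.53. The fold limit raises both folds by construction. The score limit selects on the same library 2 signals from which the library 2 fold is made. The cause of the other shifts was not tested. The count of 36 genes in the authors' deposited table became 11 when a log2 fold change of at least 1 in either direction was required. It was 34 within 5 kb, 42 within 50 kb, 26 with an adjusted p under 0.01 and, in an alternative chosen after seeing the data, 30 with the combined shared peaks alone. No paired analysis was possible because each peak has 1 value per library and the differential table none. A shared peak needs both libraries, so neither could be left out. The motif alternatives were not run, since no sequence was used here.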

Other observations

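The combined set is written as 3 runs sorted by position. The first 171 rows hold 162 shared peaks and 9 library 2 peaks that miss a library 1 peak by 2 to 51 bp, with scores down to 0.53. The next 2 rows are library 1 peaks. The last 317 rows hold 6 shared peaks and 311 others that lie 52 bp or more from any library 1 peak, and no score among them is below 1.51. SoxB2, a Sox-family regulator named after its value was seen, is the nearest gene to the shared peak with 13.88 antibody and 0.62 input signal in library 2, at 88355 bp, too far for assignment here. SoxB2 stood at -0.86 on the log2 scale in the authors' deposited table. Hox11/13b (Hbox7), of the endoderm and endomesoderm list, was 15757 bp from a shared peak with folds of 6.31 in library 2 and 6.45 in library 1. Msx, of the ectoderm and neural list, was 66453 bp from another. Both distances are beyond the 10 kb limit. In the authors' deposited table Hox11/13b stood at 1.15 and Msx at -1.69 on the log2 scale.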
